A study of Caenorhabditis elegans with 2 samples.

Results

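The centre of chromosome V of Caenorhabditis elegans is described here as the middle 40% of that chromosome, V 6276001 to 14644000 in the positions of the deposited table, 8368 bins of 1 kb out of 100257 bins on chromosomes I to V and X. The bins were chosen by position alone. Within them lie a pair of GRTS runs of 11 bins each, V 8826001 to 8837000 and V 8868001 to 8879000, called the first and the second run below, which were compared bin by bin. The pair had been picked because their coIP totals were nearly equal, so that likeness of totals is a description and not a finding. The series holds 2 small RNA libraries from young adult hermaphrodites, without replicates. The N2 library came from N2, the wild-type laboratory strain. The coIP library held the small RNA that came down with a FLAG-StrepII-tagged HRDE-1. Both labels carry the same protocol text, from a grind of 5000 to 10000 adults to an anti-FLAG resin and a cloning procedure independent of 5′ monophosphates. They do not say whether the N2 RNA went through the resin, nor what strain background, promoter or copy number the tagged protein had. The ratio of the libraries is therefore that of a pull-down to N2 small RNA of unstated preparation.

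The Argonaute HRDE-1 works in germline nuclei. It carries siRNAs made by RNA-dependent RNA polymerases, mostly antisense to their targets, and is known for directing silent chromatin and transcriptional repression to retrotransposons and some genes, which can pass to later generations. In published work the mark GRTS stands for loci under transcriptional silencing by germline nuclear RNAi, and GRH for loci whose histone H3 lysine 9 methylation depends on it. How either mark was set is not stated in the file. The centres of worm autosomes are known as gene-rich and poor in repeats compared with the arms.

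Values are in ppm, that is, each library's column divided by its sum and set to 1000000. Summed over the table, N2 had 2161949 read equivalents and the coIP 4832030, inferred from the step between low values. Many bins hold fractions of a read. Every interval below is at 95%. For a ratio or a share it covers no more than counting error, with each read equivalent taken as 1 count, and for the median it takes bins as independent. With 1 library per group no difference has a replicate check, no test was possible and no p-value was computed. The label of the worms was not checked against marker genes, since the positions were not matched to an annotation. A bin was called higher or lower in the coIP when it was measured (a mean of at least 0.351 ppm) and differed by at least 4-fold.

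The share of the centre of V was 11.9% in N2 (interval 11.8 to 11.9) but 4.36% in the coIP (interval 4.34 to 4.38), a ratio of 0.367 (0.365 to 0.369). A pair of bins set that direction. V 14364001 to 14365000 and V 6665001 to 6666000 together held 9.23% of the whole N2 library and 0.153% of the coIP. Without them the centre held 2.64% of N2 and 4.20% of the coIP, and the ratio turned to 1.59 (1.58 to 1.61). Those shares are still of whole libraries. With the 10 highest bins of either library left out of both the centre and the totals, the shares were 4.51% and 4.44%, close to each other. The single highest bin made up 64.0% of the N2 signal of the centre, while 83 bins were needed for the upper 50% of its coIP signal. In the centres of I, II, III and IV the highest bin made up 49.5%, 17.4%, 69.7% and 21.5% of N2. The ratios of those centres were 0.864, 1.27, 0.398 and 0.757, so that of III was near the one here. The left arm of V had 1.60% of N2 and 4.47% of the coIP, and the right arm 8.54% and 6.48%.

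**Figure D1:**
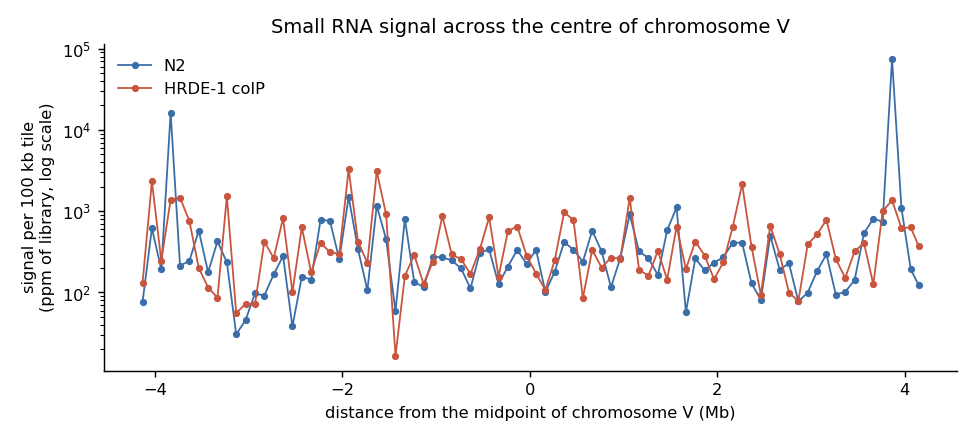
Signal per 100 kb tile, in ppm of the library on a log axis, against distance in Mb from the midpoint of chromosome V; blue is N2, red is the HRDE-1 coIP. The 84 tiles ran from 30.5 to 75012 ppm in N2 (median 241.8) and from 16.6 to 3276 ppm in the coIP (median 296), and the pair of high N2 tiles near either edge each hold 1 of the bins named above.

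Bin by bin, the centre was less shifted to the coIP than the arms of the same chromosome. Of its 3910 measured bins, 539 were higher and 493 lower, 13.8% and 12.6%, against 19.4% and 9.04% over all bins of the table. The split depended on the processing. With the median of ratios it was 253 higher and 1040 lower, with totals that leave out the 10 highest bins of either library 269 and 1014, and with a pseudocount 10 times smaller 641 and 826. Shares of all bins under these settings are not given here. In the left arm of V the shares were 24.8% and 5.25%, and in the right arm 21.7% and 9.01%. The median log2 ratio of coIP over N2 was 0.36 (0.25 to 0.45) in the centre, 1.05 in the left arm and 1.03 in the right arm, against 0.73 for all measured bins. Both other scalings shift all bins alike and put the median of the centre under 0, at -0.37 and -0.32. Under library totals its values were near those of the centres of I to IV, where 14.5% of measured bins were higher, 12.0% were lower and the median was 0.39. At a minimum 10 times higher, the median of the 1401 bins of the centre was 0.83 and those of the arms were 1.77 and 1.59. The centre was also emptier, with 25.5% of its bins without a read in either library, against 17.6% in the left arm and 18.8% in the right. By p-value in the authors' deposited table, at 0.05 or under, 726 bins of the centre were higher and 408 lower, 8.68% and 4.88% of its bins, against 12.6% and 4.82% of all bins.

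The first and second GRTS runs start 42 kb apart and had the same shape in the coIP. In both, the first bin stood above the second, and the signal peaked over the third to the sixth. The first bin held 110.0 ppm in the first run and 116 ppm in the second. The second bin held 29.99 ppm and 34.6 ppm. The third, which alone carries GRH beside GRTS in both runs, held 177 ppm and 172 ppm. At each of these positions the interval of the ratio of the runs included 1. The fourth bin held 187 ppm in the first run and 149 ppm in the second, a ratio of 0.798 (0.723 to 0.881). The fifth, the highest of either run, held 292 ppm and 296 ppm. The sixth held 179 ppm and 214 ppm, a ratio of 1.20 (1.10 to 1.31). The gaps at the fourth and the sixth bin were of like size and opposite sign, -37.7 ppm and 35.5 ppm as second minus first run.

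The remaining bins were lower than the peak in both runs. The seventh bin held 59.6 ppm in the first run and also 59.6 ppm in the second. The eighth held 66.3 and 58.0 ppm, and the ninth 45.9 and 55.3 ppm, a ratio of 1.21 (1.01 to 1.45). The tenth, the lowest of both runs, held 24.2 and 24.6 ppm, and the last 45.3 and 44.5 ppm. In all, 8 of 11 coIP pairs had an interval of the ratio that included 1. These intervals take the reads of the first and the second run as independent. Were reads shared between the runs, ratios near 1 would be set in advance. The bins of the runs spanned 12.2-fold from lowest to highest, while the widest gap between paired bins was 1.25-fold and the median gap 1.06-fold. The 4 highest bins held 68.7% of the first and 67.95% of the second run. The totals were 1217 and 1225 ppm, a ratio of 1.01 (0.971 to 1.04). Over the 11 pairs, which share a library and may share reads, Pearson's r of the log2 coIP values was 0.989 and Spearman's rho 0.964. With the second run moved by 1 bin to the left or right r was 0.346 and 0.498, and with it read from its end 0.0976.

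N2 gave the same profile at a lower level. The first bin held 46.8 ppm in the first run and 49.0 ppm in the second, the second 15.7 and 17.4 ppm, and the third 54.4 and 52.9 ppm. The fourth held 39.1 and 31.2 ppm, the widest gap in N2, and the fifth, again the highest, 81.97 and 84.8 ppm. The sixth held 75.2 and 78.8 ppm, and the seventh 15.0 and 17.4 ppm. The eighth to the last bin lay between 14.7 and 29.1 ppm in both runs. All 11 N2 ratios of second over first run had an interval that included 1, under the same limit as in the coIP. At the tenth bin the interval ran from 0.577 to 1.63, so smaller gaps could not be seen there. The N2 totals were 414 and 417 ppm, a ratio of 1.01 (0.917 to 1.10), and r of the log2 values was 0.988 with rho 0.991.

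**Figure D2:**
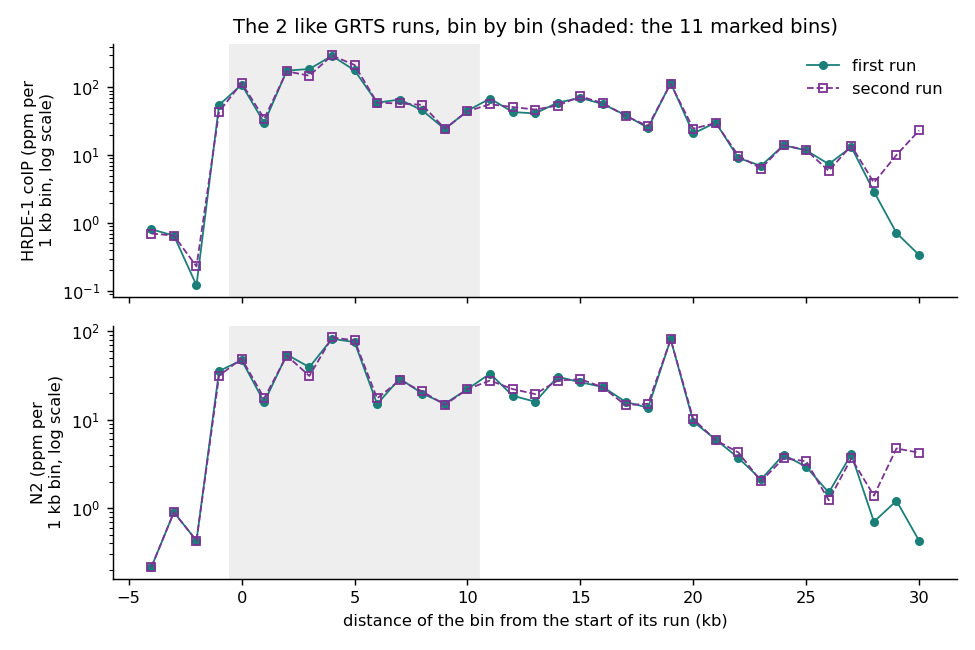
Signal per 1 kb bin, in ppm on a log axis, against the distance in kb of the bin from the start of its run, for the coIP (top) and N2 (bottom); filled circles are the first run, open squares the second, and the shaded bins carry the GRTS mark in both. The lines lie over each other from 1 bin before the marked bins to 27 kb after the start, with a gap of at most 1.25-fold, and part after that.

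The ratio of coIP over N2 was 2.93 for the first run (2.73 to 3.14) and 2.93 for the second (2.73 to 3.14), a log2 ratio of 1.55 in each. It was uneven along the runs, and uneven in the same way. The fourth bin had the largest ratio, 4.75 (3.80 to 5.997) in the first run and 4.80 (3.74 to 6.24) in the second. The tenth had the smallest, 1.60 (1.08 to 2.43) and 1.68 (1.13 to 2.56). The intervals of these bins did not overlap within either run. The bin log2 ratios ran from 0.67 to 2.25 in the first run and from 0.74 to 2.25 in the second, and paired bins differed by -0.21 to 0.19. Of the 22 bins, 2 were at least 4-fold higher, the fourth of each run, against 19.4% of all measured bins. As totals the runs thus stood above the median measured bin, at 0.73, but their bins were seldom past the 4-fold rule. The tenth bin of the first run, at 0.67, lay under that median. At 10 times the minimum the median of all bins was 1.17, and the median bins of the runs stood at 1.23 and 1.40. Scaling by the median of ratios lowers every log2 ratio by 0.73, which takes the fourth bins, and the mirrored bins described further on, under the 4-fold rule. By the authors' deposited table every bin of both runs had a p-value of 0.04 or under, by an unstated method. At 0.05 or under, 48 of the 53 marked bins of the centre passed. Of all bins, 12.6% passed as higher and 4.82% as lower. Passing is thus not particular to the runs.

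**Figure D3:**
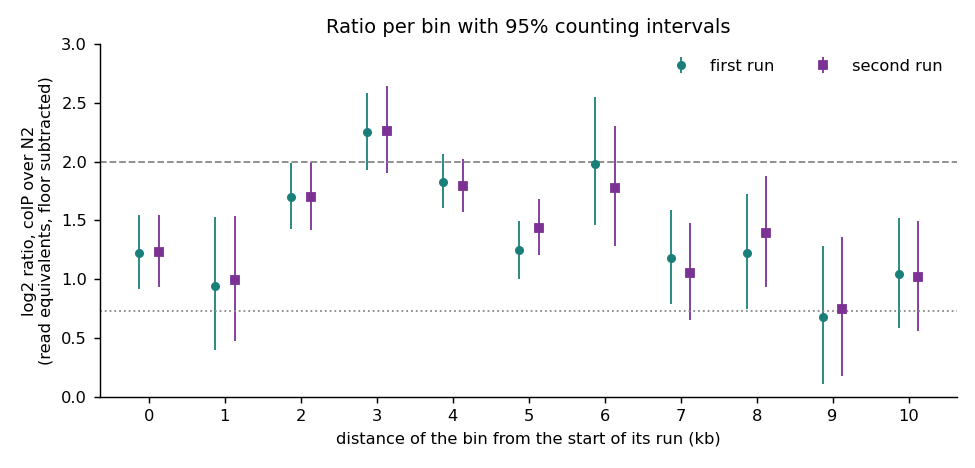
Log2 ratio of coIP over N2 in read equivalents for each of the 11 bins of the first (circles) and second (squares) run, with 95% counting intervals as bars, against distance in kb from the start of the run; the dashed line is the 4-fold rule and the dotted line the median of all measured bins, 0.73. Only the bin at 3 kb lies above the dashed line in both runs.

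The likeness did not end with the marks. Just before the runs, the bin V 8825001 to 8826000 held 54.99 ppm of the coIP and its partner 43.9 ppm, while the bins before those were nearly empty. Just after them, V 8837001 to 8838000 held 68.6 ppm and its partner 56.6 ppm. Counting paired bins at this spacing as alike when both libraries differed by at most 1.41-fold, the alike stretch was 29 bins long, V 8825001 to 8854000 and V 8867001 to 8896000. Over it the coIP totals were 1906 and 1905 ppm and the N2 totals 742 and 741 ppm. The gaps between single paired bins added up to 9.09% of the coIP total of the first stretch, but signed they came to -0.0628%, so gaps of opposite sign offset each other. The coIP ratio over N2 was 2.56 (2.43 to 2.70) in both stretches. In the 8 bins before them, V 8817001 to 8825000 and their partners, the N2 values were equal to the last deposited digit in 8 of 8 pairs and the coIP values in 2, at no more than 1.98 and 7.04 reads each. Beyond the stretch the pairs parted: at 30 kb from the run starts the coIP signal was 0.339 ppm at the first place and 23.2 ppm at the second, and the N2 signal 0.430 and 4.24 ppm.

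No other spacing up to 200 kb gave a stretch of this length in the centre. Among spacings of 1 to 200 kb, the longest unbroken row of alike pairs, both bins at 10 times the minimum, was 29 at 42 kb and at most 4 at any other spacing. Of the pairs 42 kb apart, 47 of 247 (19.0%) were alike, against a median of 5.08% and a maximum of 16.1% at the other spacings, that maximum being for adjacent bins. The 47 include the 29 pairs of the stretch itself, so that share restates the stretch and is no separate result. The spacings were scanned after the likeness was known. In the first and the second run, 2 and 1 of the 11 N2 values were whole reads to within 0.0055, against 59.6% of N2 values above the floor in the centre. Of the coIP values 3 and 1 of 11 were, against 31.2% in the centre. These shares were not matched for depth. Bins with more reads have more chances to hold a fraction of one, so the contrast cannot show shared reads. How the authors treated reads with several sites is not known here, so signal of either place alone cannot be told apart from signal shared between both.

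Marks and signal did not run fully together inside the paired stretches. Each stretch carried 15 GRTS bins. The marks were the same in 27 of 29 pairs and differed in the pairs 14 and 15 kb from the run starts, where the first stretch was marked at the former and the second at the latter. The values of those pairs were alike, 59.8 and 54.0 ppm in the coIP at 14 kb and 70.0 and 73.9 ppm at 15 kb. The 30 GRTS bins had a median of 28.2 ppm in N2 and a median log2 ratio of 1.25, while the 28 bins without a mark had 9.79 ppm and 1.35. By median the marked bins were thus the stronger ones, with a median ratio much like that of their unmarked neighbours. The unmarked bins include the weak end of the stretches, from 21 to 27 kb. Bin by bin the order was not kept. In N2 of the first stretch the unmarked bin just before the run held 35.5 ppm, and the marked bin at 20 kb 9.49 ppm. Each position counts at both places, and reads may be shared between them. The bin at 19 kb, marked in both, had the smallest ratio of the marked bins in the stretches, with 116 and 113 ppm in the coIP and 80.97 and 80.5 ppm in N2. The bin at 21 kb, unmarked in both, had the largest log2 ratio of either stretch, 2.32 and 2.33, on 5.96 and 5.86 ppm in N2.

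These stretches weigh heavily in the GRTS bins of the centre, since they hold 30 of its 40. All 40 were measured, 36 lay above the median of all measured bins, 6 (15.0%) were at least 4-fold higher, against 13.8% of the measured bins of the centre and 19.4% of all, and none was lower. With the median of ratios none of the GRTS bins was higher, beside 253 of the 3910 measured bins of the centre. The share of all bins under that scaling is not given here. Of the 150 measured GRTS bins outside the centre, 22.0% were higher. The median log2 ratio of GRTS bins was 1.26 in the centre and 1.49 elsewhere, beside 1.17 for all bins at 10 times the minimum. Leaving out the paired stretches, 4 of the remaining 10 GRTS bins were higher and their median was 1.62. Those 4 belong to a single place.

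That place is V 14039001 to 14055000, where 4 GRTS bins stand 5 kb apart in a row and mirror each other. The outer bins, V 14039001 to 14040000 and V 14054001 to 14055000, each held 2.58 ppm in N2, with 11.02 and 10.998 ppm in the coIP. The inner bins, V 14044001 to 14045000 and V 14049001 to 14050000, each held 18.9 ppm in N2, with 81.7 and 81.8 ppm in the coIP. Each inner bin was 4.35-fold higher in the coIP (3.15 to 6.16). Read from the ends inward, 7 of the 8 pairs of bins had the same N2 value to the last deposited digit, and the exception was the innermost pair, at 0.293 and 1.19 ppm. The coIP values were equal in 3 pairs. None of the 16 N2 values was whole reads to within 0.0055, a share likewise not matched for depth. Here too reads of one side and the other cannot be told apart. Of the 5 pairs next outside the group, 1 had equal N2 values, at 0.644 ppm on both sides, and none had equal coIP values.

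**Figure D4:**
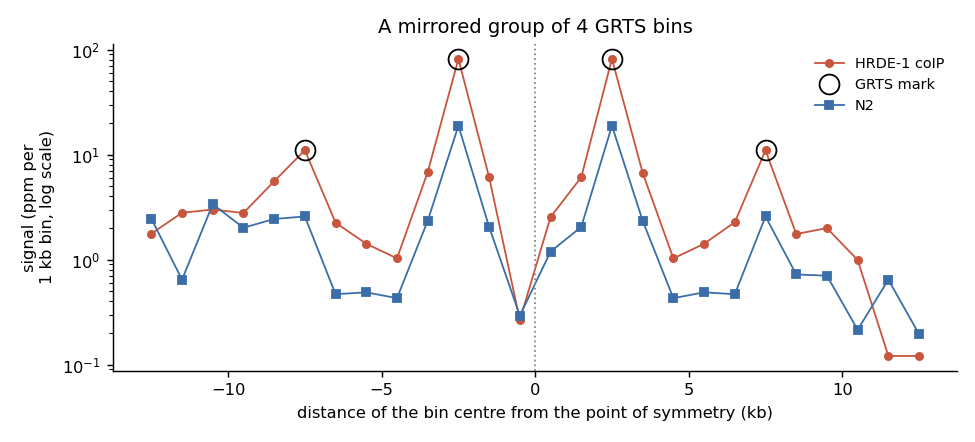
Signal per 1 kb bin, in ppm on a log axis, against the distance in kb of the bin centre from the point of symmetry of the 4 GRTS bins (circled); red is the coIP, blue is N2, and the dotted line marks the point of symmetry. Peaks of 81.7 and 81.8 ppm in the coIP stand at equal distance on either side, and beyond the outer marks the coIP values of paired bins differ.

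Bins with the GRH mark were fewer and included the strongest marked place of the centre. There were 17, all measured, with a median log2 ratio of 1.72, and 6 (35.3%) were at least 4-fold higher, against 42.9% of the measured GRH bins elsewhere and 19.4% of all measured bins. With the median of ratios 1 of these 6 was still past the rule, beside 253 of the 3910 measured bins of the centre. Among the 6, V 11486001 to 11487000 and V 12696001 to 12697000 had no N2 read, so their ratios rest on the floor and the pseudocount. The run V 12690001 to 12697000, with 6 GRH bins of 7 and no GRTS mark, held 171 ppm in N2 and 1642 ppm in the coIP, a ratio of 9.60 (8.66 to 10.7). Its bin V 12692001 to 12693000 alone held 147 ppm in N2 and 1551 ppm in the coIP, 94.5% of the coIP signal of the run. The run V 14274001 to 14277000, GRH throughout, held 182 ppm and 645 ppm, a ratio of 3.54 (3.18 to 3.93). It was spread more evenly, its highest bin holding 57.0% of its coIP signal. V 6590001 to 6592000, with a GRH and GRTS bin beside a GRTS bin, held 133 ppm and 256 ppm, a ratio of 1.92 (1.68 to 2.18), the smallest of the marked runs named here. The GRTS run V 12646001 to 12648000 held 204 and 465 ppm with a ratio of 2.26 (2.04 to 2.51). V 8883001 to 8889000, with 4 GRTS bins inside the second stretch, held 172 and 335 ppm, a ratio of 1.94 (1.74 to 2.18).

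**Figure D5:**
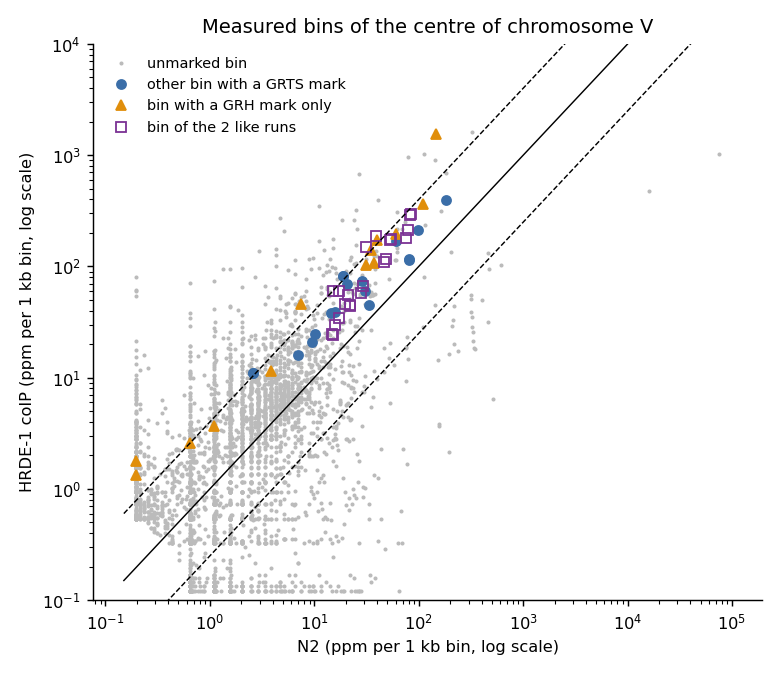
Each of the 3910 measured bins of the centre by its N2 (horizontal) and coIP (vertical) signal in ppm, both log axes; grey dots are unmarked bins, blue circles other GRTS bins, orange triangles bins with the GRH mark only, open squares the bins of the 2 like runs, the solid line equal signal and the dashed lines 4-fold differences. All 53 marked bins lie above the solid line and 12 of them are at least 4-fold higher in the coIP.

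Most of the strong coIP bins of the centre carried no mark, but marks were few in all. Of its 100 highest coIP bins, 24 were marked, against 0.633% of all its bins, and 19 of its 100 highest N2 bins were. Of the 24, 10 were in the like runs. Of the 100, 49 were unmarked and at least 4-fold higher, where 13.8% of measured bins of the centre and 19.4% of all were higher. Picking bins by coIP signal favours higher bins, so that excess is a description and not a finding. The largest unmarked run of higher bins, V 6417001 to 6421000, held 273 ppm in N2 and 2037 ppm in the coIP, a ratio of 7.42 (6.83 to 8.07). The bin V 8484001 to 8485000 held 324 and 1619 ppm, a ratio of 4.95 (4.59 to 5.36), and lies with 1 bin between it and the GRTS bin V 8482001 to 8483000, whose 60.96 and 171 ppm gave a log2 ratio of 1.49. The mark in that neighbourhood was thus not on its strongest bin. With the median of ratios the log2 ratio of V 8484001 to 8485000 was 1.58, under the 4-fold rule. V 6772001 to 6774000 held 89.8 and 1320 ppm, a ratio of 14.7 (12.7 to 17.0). V 7196001 to 7198000 held 42.1 and 822 ppm, a ratio of 19.6 (15.9 to 24.3). V 9544001 to 9548000 held 65.2 and 654 ppm, a ratio of 10.1 (8.51 to 12.0). The other 5 of the 10 largest held 306 to 469 ppm in the coIP with ratios of 4.92 to 61.7. As runs of higher bins these places were at most 4 bins long, but that width follows from the 4-fold rule. Signal under the rule can reach further, as beside V 8484001 to 8485000, where the adjacent bins held 137 and 125 ppm in the coIP.

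The largest ratios rested on few N2 reads. Among higher runs of at least 2 bins with at least 10 N2 reads, V 7868001 to 7871000 had the largest, 61.7 (36.7 to 113), with 6.93 ppm in N2 and 395 ppm in the coIP. V 14508001 to 14510000 followed with 41.6 (24.3 to 78.4), on 6.27 and 248 ppm. The others were V 14591001 to 14594000 at 34.0 (18.4 to 71.1), V 13572001 to 13574000 at 25.9 (15.1 to 48.9) and V 13386001 to 13393000 at 24.7 (15.7 to 41.2). The intervals of neighbours in this order overlap, so the order is not settled. Of the 539 higher bins, 312 had under 3 N2 reads and 149 had none. Of the 11446 higher bins among all bins, 6942 and 3311 did, so these shares are not particular to the centre.

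On the N2 side, single bins stood out. V 14364001 to 14365000 held 74539 ppm in N2 and 1034 ppm in the coIP, 72.6-fold lower (70.6 to 74.7). V 6664001 to 6666000 held 15979 and 477 ppm, 33.7-fold lower (32.4 to 35.2). Both still held more coIP signal than any marked bin except V 12692001 to 12693000. The bin V 14092001 to 14093000, with 514 and 6.46 ppm, was 81.7-fold lower (57.2 to 120.8). V 9090001 to 9092000 held 666 and 46.97 ppm and was 14.3-fold lower (12.4 to 16.5), and the other 4 lower runs with the largest N2 signal held 461 to 616 ppm. None of these 8 runs carried a mark, which only 0.633% of all bins of the centre carry. The 5 most equal of the 50 strongest bins had ratios of 0.659 to 2.13, and 2 of them carried the GRTS mark, V 6591001 to 6592000 and V 12647001 to 12648000.

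Along the centre the median log2 ratio of 500 kb tiles ran from -0.20 at V 12776001 to 13276000 to 0.77 at V 8776001 to 9276000, the tile with both like runs. At 10 times the minimum these tiles stood at 0.47 over 60 bins and 1.28 over 89 bins. The tile V 8776001 to 9276000 holds both paired stretches of 29 bins, all of them at 10 times the minimum. Its median there thus largely restates theirs. At that minimum the tile V 7276001 to 7776000 had the highest median, 1.74, over 35 bins, so the order of tiles depends on the minimum.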

How the data were processed

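Small RNA of 1 N2 and 1 HRDE-1 coIP library was analysed as the deposited coverage signal per 1 kb bin. Bowtie 0.12.7 is named per the submitters' processing notes; build, read filters, handling of multi-site reads and normalizing total: not given in the sources used here. The authors' deposited table also holds a p-value per bin, of unstated method, and the GRTS and GRH marks. Judging by the values, 0.1 is the floor of both columns, and 1 read is worth 0.232 in N2 and 0.169 in the coIP; read equivalents are the values above the floor in these steps. Above the floor, 53.9% of N2 and 29.7% of coIP values were whole reads within 0.0055, so no count test was run.

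Each column was divided by its sum. Log2 ratios of bins used a pseudocount of 0.121 ppm, the smallest value, and understate low bins; ratios and shares of regions used read equivalents, with exact binomial intervals. Runs bridge gaps of up to 1 bin. Named regions were the like runs, the 5 other marked runs and 10 unmarked higher runs with most coIP signal, the 5 higher runs with the largest ratio, the 8 lower runs with most N2 signal, the 5 most equal of the 50 strongest bins and the extreme 500 kb tiles. The mirrored group, the spacing scan and the single bins named beside them were chosen after their values were seen. Members and rules were chosen with earlier results of these data known. Counting and spacing scan were run on simulated data. The simulated copy used only bins richer in N2 reads than many bins of the real stretch, and the real spacing was left out of its scoring. Finding a copy at the lower depth of the real stretch was thus not tested. Python 3.11.15, numpy 2.4.6, pandas 2.3.3 and SciPy 1.17.1 were used.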

Additional observations from a re-analysis of the deposited data

How the results depend on the processing

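The centre had 539 higher and 493 lower bins. A 2-fold rule gave 1435 and 1099, an 8-fold rule 200 and 211, a minimum 10 times higher 321 and 181, and a pseudocount 10 times larger 265 and 185. A pseudocount 10 times smaller gave 641 and 826. Scaling by the median of ratios gave 253 and 1040, and totals that leave out the 10 highest bins of either library 269 and 1014. The last pair lower every log2 ratio by 0.73 and 0.68. Which side had more bins thus changed with scaling, pseudocount and fold rule. The median log2 ratio of the centre (0.36) turned to -0.37 and -0.32 under them and to -0.32 with no minimum, which lets in bins without reads, and was 0.22 with 10 times the pseudocount, 0.83 at 10 times the minimum and 0.54 with the floor subtracted; in the settings other than the scalings, which shift all bins alike, it stayed below that of all bins. Shares of N2 and the coIP (11.9% and 4.36%) were 4.51% and 4.44% without the top 10 bins, 11.8% and 4.41% as deposited, 12.96% and 5.93% for the middle 50%, 1.90% and 2.96% for the middle 30%, which leaves out both high N2 bins, and 2.91% and 4.21% without the 2 highest N2 bins. The like runs fell from 1.55 to 0.82 each with the median of ratios and to 0.87 each without the top 10 bins. Profile r fell to 0.346, 0.498 and 0.0976 in the coIP, and to 0.0853, 0.196 and -0.0842 in N2, with the second run moved left, right and read from its end. Of 32 other named regions, 23 were past 4-fold and 20 with the median of ratios, which took V 8484001 to 8485000, V 6602001 to 6606000 and V 6788001 to 6789000 under it. The higher and lower runs among these regions were picked by the 4-fold rule, so the count of 23 was largely set in advance. The whole stretch and the shares without 2 bins were added after the data were seen. No paired analysis was possible because N2 and the coIP are single libraries. Ratios of bins with under 3 N2 reads are limited by depth.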

Other observations

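In the annotation of assembly WBcel235, used for names only because the file's build is not known, 12 of 245 pairs of genes on chromosome V with the same symbol lie 42.094 to 42.095 kb apart. They carry 10 symbols: C01B7.7, C01B7.13, F07B7.1, F07B7.2, F07B7.8, F07B7.14 and the core histone genes his-49, his-50, his-51 and his-52. Most same-symbol pairs lie at other distances, 75 of them at 0 kb after rounding to 1 kb. The like GRTS runs start 42 kb apart in the table. Positions were not compared between the builds, so whether these genes lie under the runs was not tested.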
